A study of Mus musculus with 4 samples.

Results

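The vascular endothelial growth factors, their receptors and the neuropilins were followed in cells from mouse lymph nodes that drained experimental tumours. The 10 genes were Vegfa, Vegfb, Vegfc, Vegfd, Pgf, Flt1, Kdr, Flt4, Nrp1 and Nrp2, chosen by name among 18193 genes on the array. They had 25 of the 45037 probe sets, and the brightest probe set, by its mean over the 4 arrays, stands for each gene.

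Tumours of human embryonic kidney 293 cells were raised under the skin of female SCID/NOD mice aged 6 to 8 weeks, which are immunodeficient. The metastatic group (n = 2) drained tumours of 293-VEGF-D cells, which overexpress VEGF-D, and the non-metastatic group (n = 2) drained tumours of 293-Apex cells, which do not. The axillary node was harvested once tumours had grown to 1600 to 2500 mm3, which took 3 to 4 weeks, and each preparation pooled 1 to 5 mice. Every preparation was cultured briefly in EGM-2 MV medium and then selected on podoplanin, which lymphatic endothelium and the fibroblastic reticular cells of nodes both carry. That medium is made for microvascular endothelium, and its commercial supplements include VEGF. Only visibly enlarged nodes entered the metastatic group. By the sorting label, the removal of tumour cells and leukocytes ahead of culture was done in that group alone, whereas the growth protocol makes no such distinction. Tumour VEGF-D, metastasis, the choice of enlarged nodes and the depletion cannot be told apart here.

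VEGF-A acts on blood vessels mainly through the tyrosine kinase receptor encoded by Kdr, while Flt1 binds VEGF-A, VEGF-B and placental growth factor and can hold VEGF-A away from Kdr. VEGF-C and VEGF-D are secreted as precursors, are cut to mature forms and drive lymphatic growth through Flt4. The neuropilins are coreceptors without a kinase of their own: Nrp1 joins VEGF-A with Kdr, Nrp2 joins VEGF-C with Flt4, and both also bind class 3 semaphorins. In lymph nodes stromal cells make several of these ligands and endothelial cells carry the receptors.

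The labelled cell type, an enriched endothelial fraction, was checked against cell type markers. Values are log2 signals after quantile normalization, so 1 unit is a doubling of signal, and levels of different probe sets do not measure which transcript was more abundant. Of the defining endothelial markers, Prox1 (mean 4.00), Pecam1 (4.94) and Cdh5 (5.87) lay under the median of all probe sets (5.95). Lyve1 (6.65) and Pdpn (10.60), the gene of the selected protein, lay above it. The mean of Lyve1 was 5.27 in the metastatic group, under the median, and 8.03 in the non-metastatic group. Its other probe set had 5.12 over the 4 arrays. Cdh5 had group means of 5.52 and 6.22 in the same order. Under the median were 6 of 10 blood and general endothelial markers and 4 of 7 lymphatic ones. The leukocyte marker Ptprc was dim at 4.13, and 4 of 9 leukocyte markers lay under the median. Ptprc was the dimmest of these 9, and the brightest, Csf1r, had 9.70. Of 9 fibroblast and reticular cell markers 1 lay under the median, and Pdgfrb had 12.27. Of 9 smooth muscle and pericyte markers 2 did, and Acta2 had 14.20. Of 10 epithelial and mesothelial markers 5 did. No scanner detection calls were used here, so a dim probe set is not called absent. In such bulk preparations, fewer cells of a type and less RNA per cell cannot be told apart.

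The question asked of the comparison was which of these genes differed between nodes draining metastatic and non-metastatic tumours. Vegfd stood lower in the metastatic group and Vegfa, Vegfb and Nrp2 stood higher, each by less than 1 log2 unit (1.64 to 1.89-fold), while Vegfc, Pgf, Flt1, Flt4 and Nrp1 overlapped between groups and Kdr differed by 0.12. By limma, with Benjamini-Hochberg adjustment over all probe sets and a threshold of 0.05, 0 of the 10 genes passed and 0 of all 18193 did (0%). At an unadjusted p under 0.05 there were 4 of the 10, against 6.7% of all genes. They were 3 higher, against 2.63% of all genes, and 1 lower, against 4.07%. The 10 genes were chosen with earlier results of these data known, so these shares are no test of the family. The groups did not overlap for 5 of the 10, against 34.6% of all genes (4 higher, against 17.2%, and 1 lower, against 17.3%). A count of 5 of 10 on so common an event is close to the background. For 1 of them, Vegfd, the gap between the groups was larger than the gap between replicates of either group, as it was for 9.84% of all genes. The median difference of the 10 was -0.14, against -0.00034 over all genes. With 2 arrays a group, the smallest two-sided p of an exact permutation test is 0.33.

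**Figure D1:**
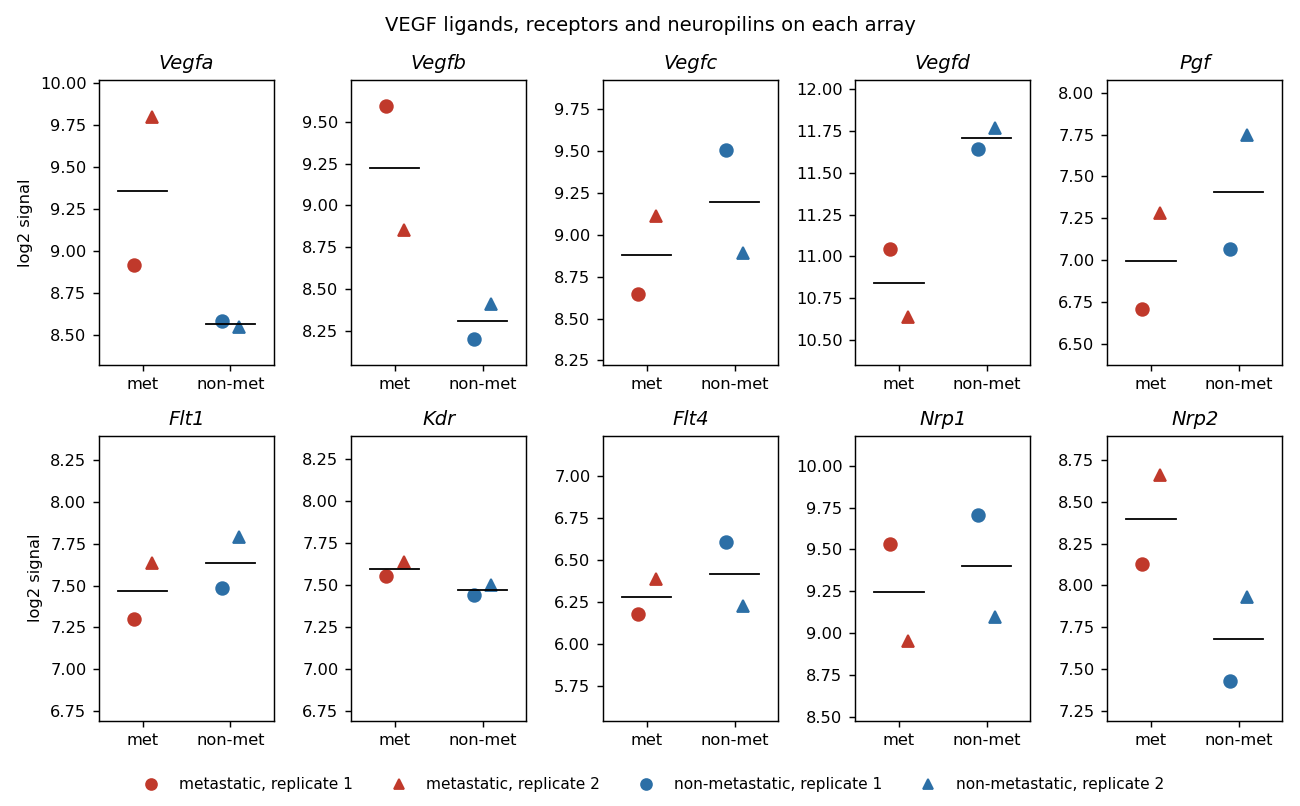
Log2 signal of the brightest probe set of each gene on the 4 arrays. Red marks the metastatic group (met) and blue the non-metastatic group (non-met), circles replicate 1 and triangles replicate 2, and black lines group means. Each panel has its own axis of the same length. Vegfd is lower on both metastatic arrays, Vegfa, Vegfb, Nrp2 and by a small step Kdr are higher on both, and the other 5 genes overlap.

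The sequences before the start sites of the 4 genes with an unadjusted p under 0.05 are shown because they set Vegfd apart in base composition. Each is the 250 bases before the gene's first listed RefSeq start (GRCm38.p6), read 5′ to 3′ on the gene's strand. Capitals mark GGGCGG, the core of a GC box, and TATAAA, each searched on both strands, and neighbouring matches can overlap.
Vegfd (chrX:164373272-164373521, plus strand): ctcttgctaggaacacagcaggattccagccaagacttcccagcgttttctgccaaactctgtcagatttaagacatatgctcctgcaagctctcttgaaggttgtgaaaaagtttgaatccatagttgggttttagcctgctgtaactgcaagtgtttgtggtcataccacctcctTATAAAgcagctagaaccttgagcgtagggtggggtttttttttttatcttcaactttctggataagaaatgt
Vegfa (chr17:46032378-46032627, minus strand): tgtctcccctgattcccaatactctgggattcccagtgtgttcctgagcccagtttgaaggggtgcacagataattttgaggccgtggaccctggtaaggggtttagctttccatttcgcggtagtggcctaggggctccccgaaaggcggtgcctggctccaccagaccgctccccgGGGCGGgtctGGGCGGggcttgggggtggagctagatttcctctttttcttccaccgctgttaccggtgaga
Vegfb (chr19:6987652-6987901, minus strand): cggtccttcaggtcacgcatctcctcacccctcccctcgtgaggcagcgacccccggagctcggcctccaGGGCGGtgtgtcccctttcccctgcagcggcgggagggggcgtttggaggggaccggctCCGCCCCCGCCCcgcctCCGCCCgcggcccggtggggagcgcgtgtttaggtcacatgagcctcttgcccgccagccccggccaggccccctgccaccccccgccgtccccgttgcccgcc
Nrp2 (chr1:62703067-62703316, plus strand): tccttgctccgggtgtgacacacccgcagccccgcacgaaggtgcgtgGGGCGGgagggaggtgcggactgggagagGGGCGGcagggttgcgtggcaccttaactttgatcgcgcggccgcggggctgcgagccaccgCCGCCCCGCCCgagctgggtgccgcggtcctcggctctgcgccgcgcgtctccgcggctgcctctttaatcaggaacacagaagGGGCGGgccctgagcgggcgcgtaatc

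All 10 genes had such a window, with 12 start sites in all. The Vegfd window had 42.4% G and C, below the median of all 32851 windows in the table (52.4%), while the windows of the other genes had 59.2 to 76.4%. GGGCGG was found 0 times before Vegfd, 2 times before Vegfa, 4 times before Vegfb and 5 times before Nrp2. It was found before the first start of 9 of the 10 genes and in 32.7% of all windows. TATAAA was found before 2 of the genes, 73 bases before the start of Vegfd and 31 bases before that of Flt1, and in 12.4% of all windows. ACGTG, 1 form of the core to which hypoxia-inducible factors bind, was not found in the Vegfa window shown. It occurred in 1 of the 12 windows, before the other listed start of Vegfa, and in 16.6% of all windows. Other forms of that core were not searched. These matches describe letters and are no evidence of binding.

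Vegfd, which encodes VEGF-D and was bright on all arrays, had log2 signals of 11.04 and 10.64 on metastatic replicates 1 and 2 and of 11.64 and 11.77 on the non-metastatic ones. Both metastatic arrays lay under both non-metastatic arrays, with a gap of 0.60 between the groups and of 0.40 and 0.13 between replicates. The means were 10.84 ± 0.29 and 11.70 ± 0.09 (SD, n = 2 each), a difference of -0.86 (SE 0.16, 95% interval -1.27 to -0.46), or 1.82-fold lower signal (limma adjusted p = 0.383). All 3 probe sets of Vegfd were lower without overlap, at -0.82, -0.84 and -0.86. At the dimmest of the 3 the gap between the groups, 0.44, was smaller than that between metastatic replicates, 0.79. By its name suffix the brightest may cross-bind other transcripts, and the other 2 carry no such suffix. These are values of the mouse gene as the platform annotates it; the VEGF-D made by the tumour cells is not analysed here. Without any single array the difference stayed between -1.07 and -0.66.

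Vegfa, the principal blood vessel growth factor and a target of hypoxia-inducible factors, had 8.92 and 9.80 on the metastatic arrays and 8.58 and 8.55 on the non-metastatic ones. Metastatic replicate 2 stood out, and replicate 1 lay closer to the other group than to its own partner. The means were 9.36 ± 0.62 and 8.56 ± 0.03, a difference of 0.79 (SE 0.28, 95% interval 0.10 to 1.49; limma adjusted p = 0.759). The other probe set of Vegfa differed by 0.84 and also did not overlap. Without metastatic replicate 2 the difference was 0.35, and without metastatic replicate 1 it was 1.23.

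Vegfb encodes VEGF-B, a ligand of Flt1 and Nrp1 that is not needed for most vessel growth. It had 9.60 and 8.86 on the metastatic arrays and 8.20 and 8.41 on the non-metastatic ones. Here metastatic replicate 1 was the high array, the reverse of Vegfa. The means were 9.23 ± 0.52 and 8.31 ± 0.15, a difference of 0.92 (SE 0.25, 95% interval 0.30 to 1.54; limma adjusted p = 0.616). It was the most positive difference of the 10 genes, and it rests on 1 probe set. Without metastatic replicate 1 it was 0.55.

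Vegfc, the other lymphatic growth factor, had 8.64 and 9.11 on the metastatic arrays and 9.50 and 8.89 on the non-metastatic ones. The groups overlapped, as metastatic replicate 2 lay above non-metastatic replicate 2. The difference was -0.32 (SE 0.25, 95% interval -0.94 to 0.30; limma adjusted p = 0.957). By its name suffix this brightest probe set may cross-bind other transcripts. The other probe sets of Vegfc, which carry no such suffix, stood at -0.52, without overlap by a gap of 0.05, and at -0.44, with overlap. Without non-metastatic replicate 1 the difference was -0.013 and without metastatic replicate 1 it was -0.087.

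Pgf, which encodes placental growth factor, had 6.71 and 7.28 on the metastatic arrays and 7.07 and 7.75 on the non-metastatic ones. The replicates lay further apart, by 0.58 and 0.68, than the group means, and the groups overlapped. The difference was -0.41 (SE 0.28, 95% interval -1.11 to 0.29; limma adjusted p = 0.945). It was -0.075 without non-metastatic replicate 2 and -0.13 without metastatic replicate 1.

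Among the receptor genes Kdr had 7.55 and 7.64 on the metastatic arrays and 7.44 and 7.50 on the non-metastatic ones, the narrowest range of the 10 genes, 0.20. The groups did not overlap, with a gap of 0.05. The difference was 0.12 (SE 0.11, 95% interval -0.15 to 0.40; limma adjusted p = 0.966), and 1 probe set measured it. Without metastatic replicate 2 it was 0.080.

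Flt1 had 7.30 and 7.63 on the metastatic arrays and 7.49 and 7.79 on the non-metastatic ones. The groups overlapped, with a difference of -0.17 (SE 0.17, 95% interval -0.59 to 0.25; limma adjusted p = 0.967). All 4 of its probe sets were lower, from -0.40 to -0.17, and 1 did not overlap, by a gap of 0.0029. Leaving out metastatic replicate 1 or non-metastatic replicate 2 left -0.0054 and -0.020.

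Flt4 had 6.18 and 6.39 on the metastatic arrays and 6.61 and 6.23 on the non-metastatic ones. Non-metastatic replicate 1 was the high array and the other 3 lay within 0.21 of each other. The difference was -0.13 (SE 0.17, 95% interval -0.54 to 0.28; limma adjusted p = 0.974), and its second probe set, which did not overlap, stood at -0.42. Without non-metastatic replicate 1 the value of the brighter probe set turned to 0.057.

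**Figure D2:**
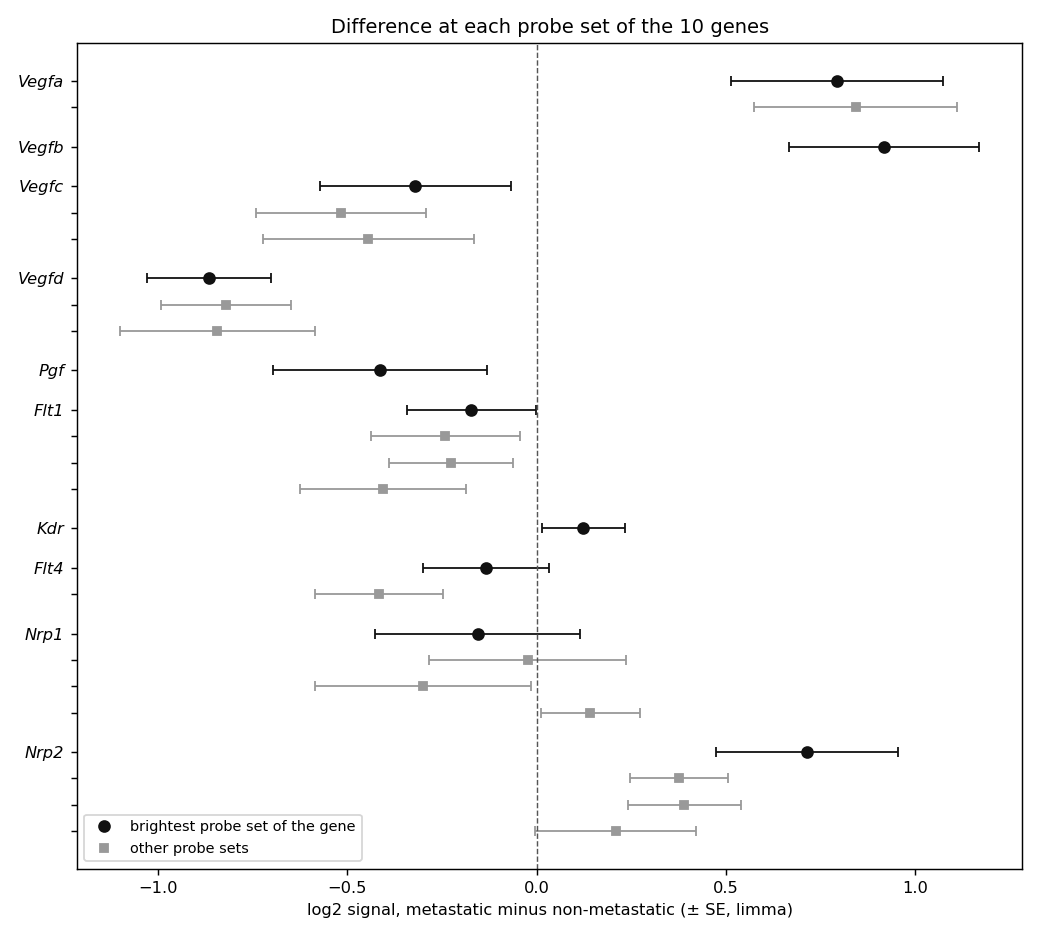
Difference in log2 signal (metastatic minus non-metastatic, ± SE from limma, n = 2 arrays a group) at each of the 25 probe sets. Black circles are the brightest probe set of a gene and grey squares its others. The 3 probe sets of Vegfd lie together from -0.86 to -0.82, those of Nrp2 spread from 0.21 to 0.71, and those of Nrp1 lie on both sides of 0.

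Of the neuropilins, Nrp2 stood higher in the metastatic group and Nrp1 overlapped. Nrp2 had 8.13 and 8.66 on the metastatic arrays and 7.43 and 7.93 on the non-metastatic ones. Both metastatic arrays lay above both non-metastatic arrays, with a gap of 0.20 that was smaller than the gaps between replicates, 0.53 and 0.50. The means were 8.39 ± 0.37 and 7.68 ± 0.36, a difference of 0.71 (SE 0.24, 95% interval 0.12 to 1.31; limma adjusted p = 0.723). All 4 probe sets of Nrp2 were higher and 3 did not overlap. The next brightest stood at 0.38 and 0.39, and the dimmest (4.38) at 0.21. With the mean of its probe sets Nrp2 stood at 0.42. Without metastatic replicate 2 it was 0.45, and without non-metastatic replicate 1 it was 0.46.

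Nrp1 had 9.54 and 8.95 on the metastatic arrays and 9.70 and 9.10 on the non-metastatic ones. In each group replicate 1 was higher, by 0.58 and 0.61, while the group means differed by -0.16 (SE 0.27, 95% interval -0.83 to 0.52; limma adjusted p = 0.984). The difference turned to 0.14 without metastatic replicate 2 and to 0.15 without non-metastatic replicate 1. Of its 4 probe sets 3 were lower and 1, the dimmest, was higher.

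**Figure D3:**
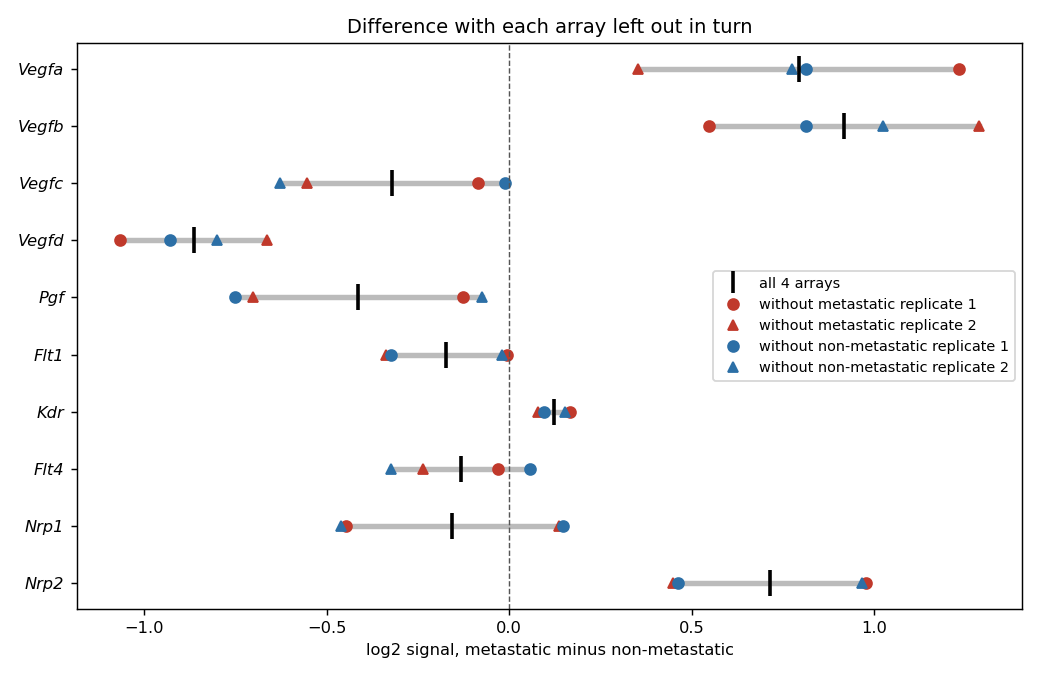
Difference in log2 signal (metastatic minus non-metastatic) for each gene with all 4 arrays (black bar) and with each array left out in turn (red, a metastatic array; blue, a non-metastatic one; circles, replicate 1; triangles, replicate 2). Vegfa, Vegfb, Vegfd and Nrp2 stayed at least 0.35 from 0. Vegfc, Pgf, Flt1 and Kdr kept their sign but came as near as -0.013, -0.075, -0.0054 and 0.080, and Flt4 and Nrp1 crossed 0.

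The arrays that carried the differences were not the same for each gene. Over the metastatic replicates, Vegfa, Vegfc, Pgf, Flt1, Kdr, Flt4 and Nrp2 were higher on replicate 2, and Vegfb, Vegfd and Nrp1 on replicate 1. The largest gaps between metastatic replicates were those of Vegfa (0.88) and Vegfb (0.74), in opposite directions. Between non-metastatic replicates the largest were those of Pgf (0.68), Vegfc (0.61) and Nrp1 (0.61), and Vegfa differed by 0.04.

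Genes known to be induced by low oxygen separated the metastatic arrays from each other. All 19 measured were highest on metastatic replicate 2, at a median of 1.51 above the non-metastatic mean, while on metastatic replicate 1 the median was -0.073 and 12 of the 19 lay under that mean. Bnip3, a mitochondrial protein, had 9.92 and 12.35 on the metastatic arrays and 9.29 and 9.45 on the others. The glucose transporter Slc2a1 had 9.62, 11.65, 9.74 and 9.78 in the same order, and the glycolytic enzymes Pgk1 and Ldha differed by 0.49 (SE 0.31) and 0.32 (SE 0.26) between the groups, which turned to -0.0081 and -0.073 without metastatic replicate 2. In the comparison of groups 18 of 19 were higher and 1 lower, with a median difference of 0.71. Of them 2 (against 6.7% of all genes) had an unadjusted p under 0.05, Aldoa at 0.73 (SE 0.21) and the histone demethylase Kdm3a at 0.74 (SE 0.28), and 0 passed after adjustment. Without metastatic replicate 2 the median was -0.073, with 7 higher and 12 lower. Aldoa then stood at 0.43, Kdm3a at 0.30 and Vegfa at 0.35. The part of these genes in the Vegfa difference was not tested.

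**Figure D4:**
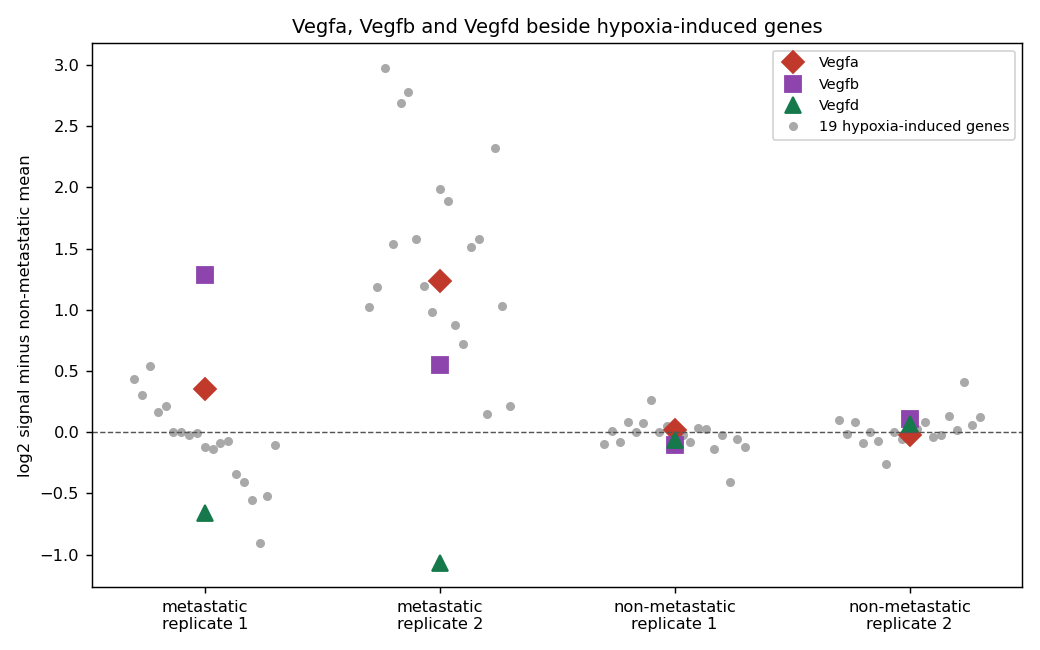
Log2 signal minus the gene's non-metastatic mean on each of the 4 arrays for 19 hypoxia-induced genes (grey points, 1 a gene) and for Vegfa, Vegfb and Vegfd. On metastatic replicate 2 all grey points lie above 0 and Vegfa lies at 1.23, and on metastatic replicate 1 the grey points lie on both sides of 0 and Vegfb lies at 1.29.

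Upstream of these genes, the 7 measured members of the oxygen-sensing machinery had 4 higher and 3 lower, with a median of 0.053. Hif1a, the oxygen-regulated subunit of the factor that drives Vegfa, had 12.26 and 12.79 on the metastatic arrays against 11.86 and 11.88. Its groups did not overlap, and the difference was 0.66 (SE 0.19). Without metastatic replicate 2 it was 0.39. The 3 brighter of its 4 probe sets stood at 0.66, 0.73 and 1.20 and the dim one at -0.02.

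The 88 measured genes of the wider VEGF pathway, those induced by low oxygen included, were 48 higher and 40 lower with a median of 0.030. None passed over all probe sets (limma), and 15 had an unadjusted p under 0.05, of which 5 were higher (2.63% of all genes) and 10 lower (4.07% of all genes). Leaving out metastatic replicate 1 keeps a lone metastatic array, on which all 19 genes induced by low oxygen were highest. Their median difference was then 1.51.

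The genes that mature VEGF-C and VEGF-D differed little. Of 7 measured, 3 were higher and 4 lower, from -0.27 to 0.15, and 0 had an unadjusted p under 0.05. Adamts3, the protease that cuts VEGF-C with the help of Ccbe1, had the smallest p with a difference of -0.27 (SE 0.17) and was dim at 4.22. It stood at -0.056 without metastatic replicate 2.

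Class 3 semaphorins and plexins, several but not all of which work through the neuropilins, were 6 higher and 6 lower with a median of -0.027. Sema3e, a ligand of Plxnd1 that repels endothelial cells, had 8.26 and 8.02 on the metastatic arrays against 9.21 and 9.75. The groups lay apart, with a difference of -1.34 (SE 0.21), and its 4 probe sets stood between -1.34 and -0.93. The receptor gene Plxna2 differed by -0.57 (SE 0.21), or -0.31 without non-metastatic replicate 2.

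Of 12 partners of the VEGF receptors at the membrane, 5 were higher and 7 lower, with a median of -0.14. Cav1, the caveolar coat protein, had 13.29 and 13.24 on the metastatic arrays against 13.67 and 13.69, a difference of -0.41 (SE 0.11). The endothelial phosphatase Ptprb, which restrains Kdr and Tek, differed by -0.52 (SE 0.14), or -0.32 with the mean of its probe sets. Cdh5, the junctional cadherin that binds Kdr, had 5.73 and 5.32 against 6.76 and 5.68, and its groups overlapped.

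The 20 measured genes of the relay inside the cell were 10 higher and 10 lower, with a median of -0.0051. The kinase gene Prkcb stood lower at -1.12 (SE 0.19), with 5.76 and 6.02 against 7.24 and 6.77. Its dimmer probe sets stood at -0.21 and 0.23, and the mean of its 3 was -0.36. Plcg1, the phospholipase that Kdr recruits, differed by 0.28 (SE 0.11), or 0.055 with the mean of its probe sets, and Hspb1, a small heat shock protein phosphorylated downstream of Kdr, by -0.28 (SE 0.11).

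Genes that VEGF induces in endothelium were 2 higher and 9 lower, with a median of -0.12. Of these 1 higher (against 2.63% of all genes) and 4 lower (against 4.07%) had an unadjusted p under 0.05, and 0 of 11 passed after adjustment. The nuclear receptor Nr4a1 had 9.57 and 8.92 on the metastatic arrays against 10.30 and 10.43, a difference of -1.12 (SE 0.22). Esm1, a proteoglycan of tip cells, was dim and differed by -1.40 (SE 0.31), and the protease gene Adamts1 differed by -0.59 (SE 0.17). Apln, the tip cell ligand apelin, stood higher at 0.69 (SE 0.24), or 0.41 without non-metastatic replicate 1. The other higher gene, Nr4a2, differed by 0.05 (SE 0.11).

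**Figure D5:**
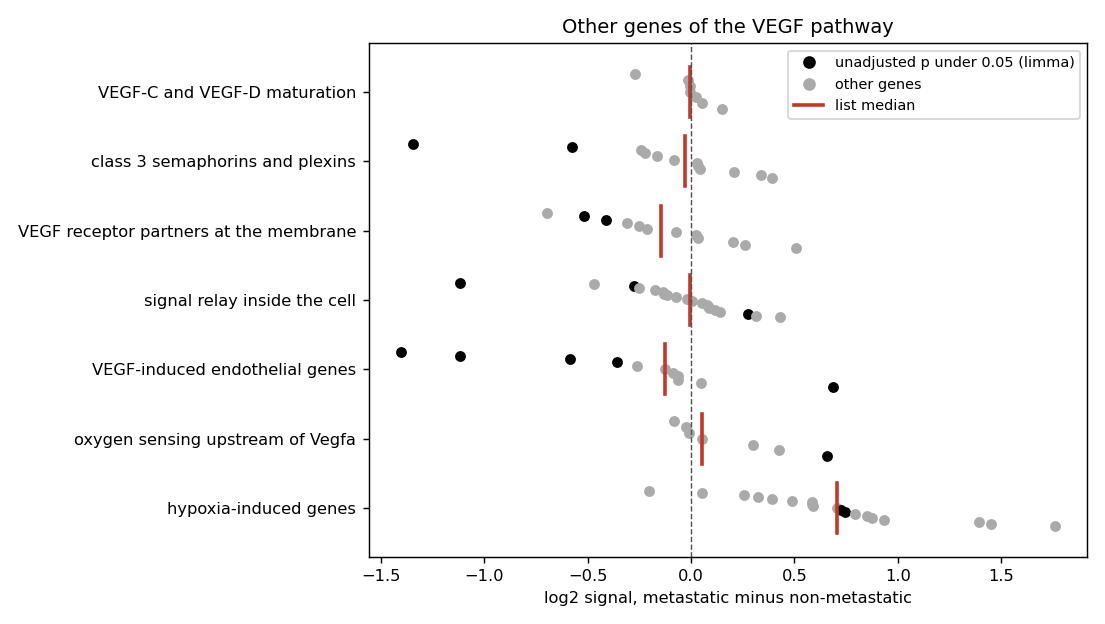
Difference in log2 signal (metastatic minus non-metastatic) of the 88 other pathway genes, 1 point a gene, in 7 lists with the list median as a red line. Black points have an unadjusted p under 0.05 (limma). The list medians lie between -0.14 and 0.053 except for that of the genes induced by low oxygen, at 0.71.

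For the 5 members whose values spanned more than 1 log2 unit over the 4 arrays, as 4.14% of all genes did, the nearest genes by pattern were sought. Likeness was the root mean square distance over the 4 arrays after subtracting each gene's own mean, which describes 4 points and has no test. Nearest to Vegfa were Kdm3a at a distance of 0.03, Fibin at 0.09 and Mmp11 at 0.10. Kdm3a had 8.62 and 9.50 on the metastatic arrays against 8.33 and 8.30. Nearest to Vegfb were Cela1 (0.04), the lipid droplet coat gene Plin2 (0.06) and 6820431F20Rik (0.07). Nearest to Vegfd were Cp, which encodes ceruloplasmin (0.05), the inhibitory SMAD gene Smad6 (0.06) and the secreted Wnt modulator Sfrp1 (0.07). Nearest to Nrp2 were Apln (0.03), Gsto2 (0.04) and Tmeff1 (0.10), and nearest to Pgf were Cfap20dc (0.03), Kprp and Pik3cb (0.05 each). Within a distance of 0.1 there were 4 genes for Vegfa, 4 for Vegfb, 11 for Vegfd, 14 for Pgf and 3 for Nrp2.

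The marker lists of other cell types were set beside these genes. A summed signal is carried mainly by the brightest probe sets of its list, so it does not count cells. Smooth muscle and pericyte markers were lower for 8 of 9 genes, 7 of them without overlap (lower without overlap were 17.3% of all genes), and their summed signal on the log2 scale was 14.12 and 14.82 in the metastatic group against 15.13 and 15.05. Acta2, their defining marker, differed by -0.53 (SE 0.20), or -0.25 without metastatic replicate 1 and -0.81 without metastatic replicate 2. Blood and general endothelial markers were 5 higher and 5 lower with a median of -0.027, and their sums were 9.42 and 9.32 against 10.17 and 9.76. In this list the endothelial sialomucin Emcn, named after its value was seen, had 6.50 and 5.66 against 8.77 and 8.45, a difference of -2.53 (SE 0.29). Leukocyte markers were 4 higher and 5 lower, 2 each way without overlap, with sums of 10.35 and 10.11 against 10.77 and 10.68. These 4 were named after their values were seen, and the lower ones differed more. Lyz2 stood at -1.47 (SE 0.44) and Csf1r at -0.54 (SE 0.16), against 0.28 (SE 0.14) for Itgam and 0.16 (SE 0.12) for Cd74. Among lymphatic markers 5 of 7 were lower and 2 higher, with sums of 11.19 and 11.21 against 11.09 and 11.07. Of these Lyve1, the hyaluronan receptor, differed by -2.76 (SE 0.64), or -1.71 without metastatic replicate 2, and Pdpn, the selected protein's gene, by 0.51 (SE 0.11). Pdpn was the brightest of the lymphatic list and made up most of its sum, with 10.89 and 10.83 on the metastatic arrays against 10.35 and 10.35. Fibroblast and reticular cell markers were 4 higher and 5 lower, with sums of 15.88 and 15.93 against 15.90 and 16.02. The largest difference in this list, named after its value was seen, was that of Cxcl13 at -1.95 (SE 0.69). It had 9.84 and 7.58 on the metastatic arrays against 10.48 and 10.83. Epithelial and mesothelial markers were 2 higher and 8 lower, with sums of 9.97 and 10.62 against 10.22 and 10.59, and Epcam differed by -0.06 (SE 0.11). The widest differences there, also named after being seen, were Wt1 at 1.00 (SE 0.24) and Msln at -1.44 (SE 0.65), both without overlap. The part of these markers in the differences of Vegfd, Vegfa, Vegfb and Nrp2 was not tested.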

How the data were processed

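Gene expression was measured on 4 Affymetrix arrays, 1 for each preparation. The values deposited by the authors are 1 log2 signal for each probe set, a scale read from the values, which run from 3.10 to 14.81. The software behind them was not given in the sources used here, and neither was any normalization. The array medians differed by 0.116, above the limit of 0.1 set for this, so the arrays were quantile normalized. Control probe sets (64) were left out and dim ones kept. Genes came from the platform annotation (34945 probe sets had 1 symbol, 932 several, 9160 none), with symbols updated through Entrez numbers for 34741. The fit was limma's lmFit and eBayes, metastatic minus non-metastatic, with 2 residual and 3.71 prior degrees of freedom. SE and 95% intervals are limma's moderated ones. Benjamini-Hochberg adjustment ran over 45037 probe sets. The script was tested on simulated data.

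The members and lists were chosen with earlier results of these data known. The lists held 95 pathway genes, of which 88 were measured here, and are described without a list test. Named were the 10 members, up to 4 genes a list with an unadjusted p under 0.05 (or the 1 with the smallest p), the 3 genes nearest in pattern to each member spanning over 1 log2 unit, Slc2a1, Ldha, Pgk1 and Bnip3, and 9 defining markers. Alternatives were the deposited values, centred medians, brighter probe sets, averaging all probe sets of each gene, trend and robust moderation, the replicate number as a block and each array left out. Titles call the preparations biological replicates, and the number of arrays limits precision. Versions were R 4.3.3, limma 3.58.1, Python 3.11.15 and matplotlib 3.10.9.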

Additional observations from a re-analysis of the deposited data

How the results depend on the processing

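With every alternative tried, limma called 0 of the 10 members after adjustment; at an unadjusted p under 0.05 their number was 2 to 5. All other calls were of genes outside them: over all probe sets limma called 5 with trend and robust moderation, 145 with the replicate number as a block and 0 to 67 with 1 array left out (67 without metastatic replicate 1), and of the 88 pathway genes 0 to 6 with 1 array left out. The labels do not say that the replicate numbers pair preparations (the deviations of same-numbered arrays had a correlation of 0.248 across probe sets, which are not independent). With the block 0 members and 0 pathway genes were called. Of the members and named pathway genes, signs turned only when 1 array was left out, where the range was -0.32 to 0.057 for Flt4, -0.46 to 0.15 for Nrp1, -0.14 to 1.89 for Slc2a1, -0.073 to 0.72 for Ldha and -0.0081 to 0.98 for Pgk1. For the markers and the genes nearest in pattern the same settings were added after seeing the data. Signs turned for Prox1 (-0.33 to 0.054), Pdgfrb (-0.15 to 0.11, and 0.0014 with the mean of its probe sets) and Ptprc (-0.093 to 0.17, and -0.029 with that mean). Lyve1 and Emcn were called with the block and without metastatic replicate 1 (-3.80 and -2.95). The median of the genes induced by low oxygen, recomputed after seeing the data, ranged from -0.073 to 1.51, both ends set by a metastatic array left out. With 1 array left out the fit has 1 residual degree of freedom and takes the lone array of a group to vary like the other group. No other alternative moved a member with an unadjusted p under 0.05 by more than 1.5 times, except the mean of probe sets for Nrp2 (0.42). Dim probe sets, among them Esm1, Adamts3 and Prox1, limit what a small difference can show.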
